A study of Mus musculus with 4 samples.

Results

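The cytosolic ribosomal proteins were taken as the genes whose symbols begin with Rpl or Rps and a number, with at most 1 of the letters a, x, y or l after it, plus the P-stalk genes Rplp0, Rplp1 and Rplp2. This rule took 77 of the 12020 genes analysed: 31 genes of the small subunit, 43 of the large subunit and 3 of the P-stalk. All 77 passed the expression filter, so all were among the 11312 genes tested. The rule leaves out some ribosomal protein genes, such as Rpsa, Fau and Rps3a1, with differently built symbols, and takes in the paralogs Rps27l and Rps4l. The paralogs Rpl3l, Rpl10l and Rpl39l are not analysed here.

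RNA was sequenced from NKT (natural killer T) cells, lymphocytes with a T cell receptor for lipids presented by CD1d. Tetramer libraries 4 and 5 came from cells stimulated on plates coated with mCD1d-PBS57 tetramers, mouse CD1d loaded with the lipid PBS57, and resting libraries 4 and 5 came from cells kept unstimulated. Both groups were GFPhi cells sorted from Va14 Tg.cxcr6gfp/+ mice on the C57BL/6 background, aged 10 to 12 weeks, so all libraries carry the receptor transgene and the GFP allele of Cxcr6. The tissue label is liver, while the sort protocol allows livers or spleens and the extraction protocol speaks of islets; the sources used here give neither the promoter of the transgene nor the time in culture. The numbers 4 and 5 are those of the table's columns. Whether libraries of the same group stem from separate mice is not stated, so the p-values reflect a spread between libraries that may be technical.

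Totals were 5495521 and 5398551 counts in tetramer libraries 4 and 5, and 4168438 and 4433048 in resting libraries 4 and 5. All 7 NKT and T cell markers were in the table and summed to 2144 and 3068 unscaled CPM in the tetramer libraries and 3966 and 3332 in the resting libraries. Ifng, the interferon gamma gene that activated NKT cells express, had 1488 and 762 counts-per-million units (CPM) in the tetramer libraries and 14.7 and 21.2 CPM in the resting libraries. The library size behind CPM was adjusted by TMM scaling, which sets libraries level on the bulk of their genes. Of the 7 NKT and T cell markers, 4 had a positive and 3 a negative log2 ratio of tetramer to resting, with a median of 0.09. By the test used below, 0 of the 7 passed as higher and 2, Klrb1c and Cxcr6, passed as lower. Klrb1c, the gene of the NK1.1 antigen, had 2.86 and 13.6 CPM in the tetramer libraries and 114 and 174 CPM in the resting libraries. Cxcr6, the locus that carries GFP, had 414 and 718 CPM in the tetramer libraries and 1617 and 1102 CPM in the resting libraries. Markers of other cells were also listed. All 5 erythroid markers passed the test as lower, and they summed to 34.4 and 88.7 unscaled CPM in the tetramer libraries against 205 and 509.8 in the resting libraries. The 4 islet hormone genes summed to 199 and 376 unscaled CPM in the tetramer libraries, against 291 and 983 in the resting libraries. The 4 listed B cell markers of 5 summed to 11.8 and 15.2 unscaled CPM in the tetramer libraries and 24.7 and 31.4 in the resting libraries. The 4 listed myeloid markers of 6 summed to 8.01 and 10.4 in the tetramer libraries and 24.7 and 28.2 in the resting libraries, and the 2 listed hepatocyte markers of 5 to 7.28 and 10.6 in the tetramer libraries and 28.8 and 39.3 in the resting libraries. Of 4 endothelial markers 1 was listed, with 9.10 and 14.4 unscaled CPM in the tetramer libraries against 86.8 and 30.5 in the resting libraries. Markers not listed in the table are not analysed here, and the part of these cells in the results was not tested.

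Each ribosome holds a single copy of most ribosomal proteins, together with ribosomal RNA, and several copies of the stalk proteins. The small subunit reads the messenger RNA and the large subunit joins amino acids, and their messenger RNAs are among the most abundant in growing cells. Most of these messages begin with a run of pyrimidines, the terminal oligopyrimidine (TOP) motif, through which signalling by mTORC1 adjusts how strongly they are translated. T cells that are activated through their receptor enlarge and raise their output of ribosomes.

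The ribosomal protein genes took 26.0% of all counts in tetramer library 4 and 25.4% in tetramer library 5, against 17.4% in resting library 4 and 23.2% in resting library 5. Both tetramer libraries lay above both resting libraries, and resting library 4 stood apart from the other three. The 95% Wilson intervals were 25.93% to 26.00% and 25.32% to 25.40% for the tetramer libraries and 17.33% to 17.40% and 23.16% to 23.24% for the resting libraries. They treat reads as independent counts of molecules, which amplified reads lacking molecular identifiers are not. They are thus too narrow even for counting error, and they leave out the spread between libraries. The means were 25.7% ± 0.427 in tetramer libraries and 20.3% ± 4.12 in resting libraries (SD, n = 2 each), a difference of 5.38 percentage points with an exact two-sided permutation p = 0.333, the smallest that 2 against 2 libraries allow. Without resting library 4 the difference was 2.46 points, and without resting library 5 it was 8.30 points. In bulk RNA, a change in the make-up of the cells and a change in RNA per cell cannot be told apart.

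**Figure D1:**
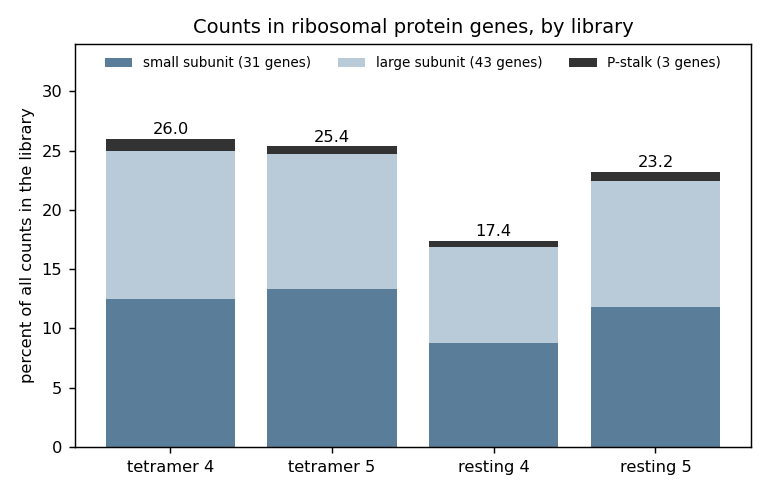
Percent of all counts in each library that fell in the 77 ribosomal protein genes, split into small subunit, large subunit and P-stalk genes, with 1 bar per library and the total above it. The tetramer bars reach 26.0% and 25.4%, and the resting bars reach 17.4% and 23.2%.

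The subunits moved alongside each other in this share. Small subunit genes took 12.5% and 13.3% of counts in tetramer libraries 4 and 5, against 8.78% and 11.8% in resting libraries 4 and 5. Large subunit genes took 12.4% and 11.4% in the tetramer libraries, against 8.09% and 10.6% in the resting libraries. For both subunits the groups did not overlap, and the gap between the tetramer libraries and resting library 5 was smaller than that between the 2 resting libraries. The P-stalk genes took 1.03% and 0.668% in the tetramer libraries and 0.495% and 0.800% in the resting libraries, with tetramer library 5 below resting library 5. The count of large subunit and stalk genes over that of small subunit genes was 1.08 and 0.908 in the tetramer libraries and 0.978 and 0.962 in the resting libraries. The groups overlapped, with a log2 difference of 0.03 ± 0.13 (SE) and an exact two-sided permutation p = 1.0. This ratio lay on both sides of the resting values within the tetramer group, and its difference was -0.10 without tetramer library 4.

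Without Rps13 and Rps20, the members with the highest mean CPM over the 4 libraries, the family's share was 22.6% and 20.03% in the tetramer libraries against 14.7% and 19.6% in the resting libraries, so tetramer library 5 then lay 0.440 points above resting library 5. The abundant TOP message Tpt1, whose protein supports growth, took 2.03% and 1.60% in the tetramer libraries and 2.81% and 3.64% in the resting libraries. The ribosomal RNA precursor Rn45s took 0.843% and 0.665% in the tetramer libraries and 1.21% and 1.82% in the resting libraries. Both shares lay lower in each tetramer library than in each resting library, opposite to the summed ribosomal protein genes. Under TMM scaling neither gene passed edgeR's test. The log2 fold change (tetramer over resting) was -0.54 ± 0.45 (SE) for Tpt1 and -0.72 ± 0.43 for Rn45s (adjusted p = 0.39 and 0.222, edgeR). Their part in the family's share was not tested. These 2 genes were chosen after their values were seen.

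Gene by gene, the family lay higher after stimulation on balance, and a minority of its members passed the test. Of the 77 genes, 72 had a positive and 5 a negative log2 fold change (tetramer over resting), with a median of 0.62 and a range of -0.85 to 1.83. Over all tested genes the median was -0.06. By edgeR's quasi-likelihood test with Benjamini-Hochberg adjustment over all tested genes and a threshold of 0.05, 14 of the 77 rose, when 14.3% of all tested genes did, and 0 fell, when 12.1% did. The share of members that rose, 18.2%, was thus near that of all genes. At an unadjusted p below 0.05, 24 members were higher and 1, Rps27, was lower, and DESeq2 called 15 higher and 0 lower. The tetramer values of 45 members lay above both resting values, against 31.6% of all tested genes, and those of 2 members, Rpl17 and Rps27, lay below both, against 33.7% of all tested genes. The groups overlapped for the other 30. Scaling to library totals in place of TMM lowered the median of all genes by 0.29 and that of the members by 0.29, to 0.33, with 58 members positive and 19 negative.

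The count of members that rose depended on single libraries. It was 3 without tetramer library 4 (Rpl31, Rpl35 and Rpl41), and 5 without resting library 4, among them Rpl35, Rpl41, Rps2 and Rps27l. It was 11 without tetramer library 5 and 18 without resting library 5. Rpl35 and Rpl41 rose under all 4 of these omissions. When the test asked for a change beyond 1.5-fold, 8 members rose.

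**Figure D2:**
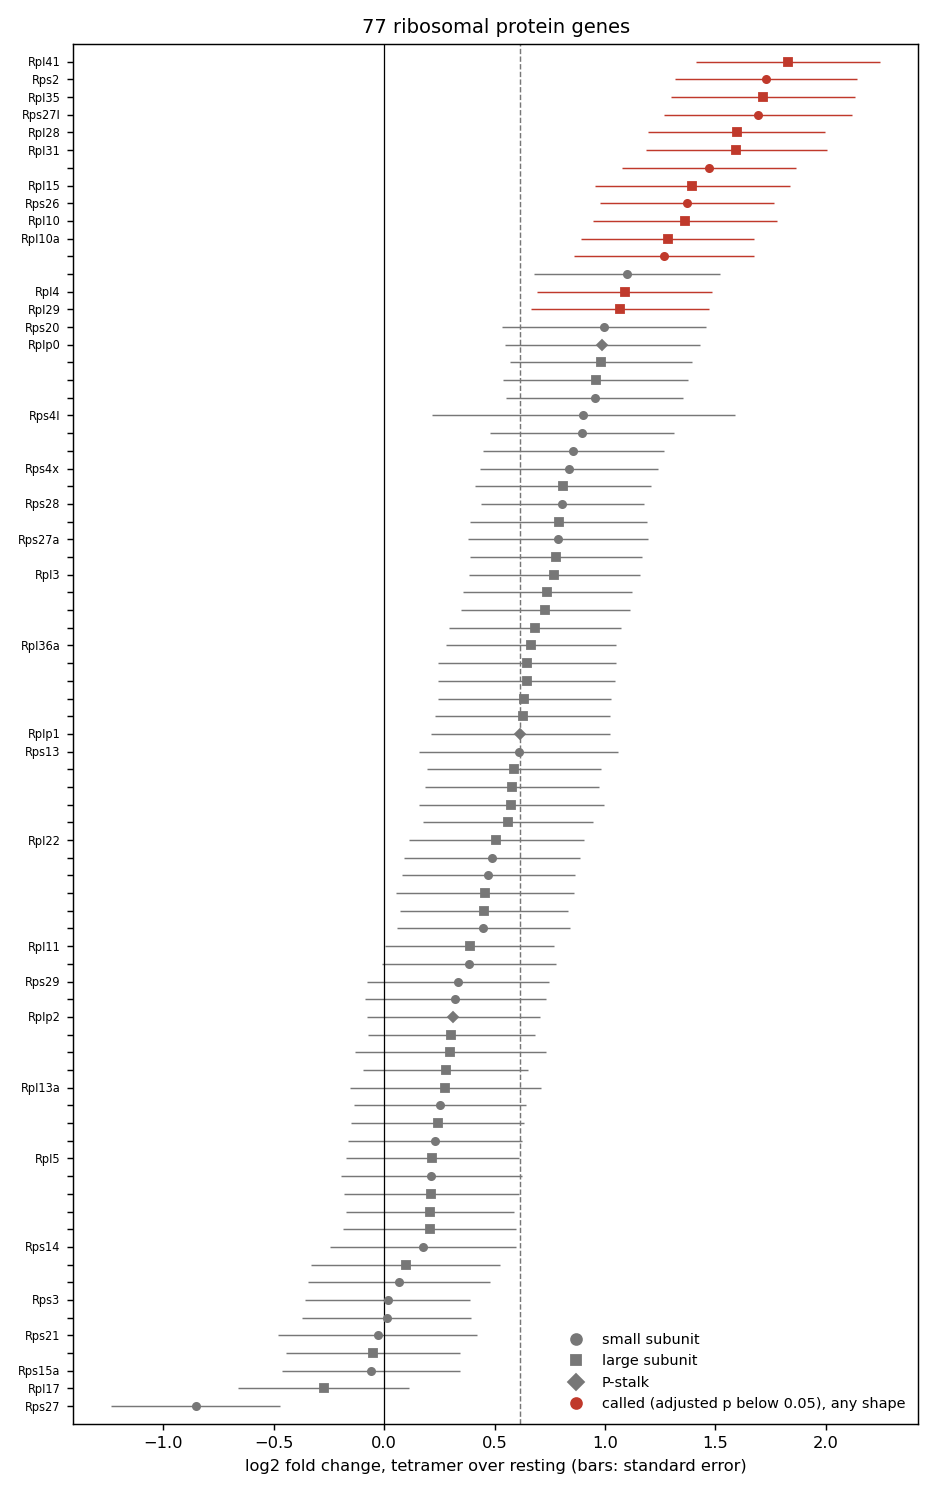
Log2 ratio of tetramer to resting for each of the 77 members with its standard error, in order of size, with names for members described in the text; the shape of the point gives the subunit, red marks the 14 members that rose at an adjusted p below 0.05, and the dashed line is the members' median of 0.62. The order runs from Rpl41 at 1.83 to Rps27 at -0.85.

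Of the 14 members that rose, 9 were genes of the large subunit and 5 of the small subunit. Rpl41, which encodes the smallest ribosomal protein, a short basic peptide at the contact between the subunits, had 5286 and 3918 CPM in tetramer libraries 4 and 5, against 953 and 1638 CPM in resting libraries 4 and 5. Both tetramer values were more than double the higher resting value, and the log2 fold change was 1.83 ± 0.42 (SE; adjusted p = 0.00215, edgeR). Rpl35, whose protein sits beside the opening of the tunnel through which the new chain leaves, had 5680.2 and 5414 CPM in the tetramer libraries and 1255 and 2122 CPM in the resting libraries. Its tetramer libraries lay close together and well apart from the resting ones (log2 fold change 1.72 ± 0.42, adjusted p = 0.0035, edgeR). Rpl31, whose protein lies at the rim of the same opening, had 2153 and 1870 CPM in the tetramer libraries and 423 and 908 CPM in the resting libraries. The groups did not overlap, and the log2 fold change was 1.60 ± 0.41 (adjusted p = 0.00537, edgeR).

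Further genes of the large subunit rose as well. Rpl28, a large subunit protein gene, had 1875 and 1262 CPM in the tetramer libraries and 374 and 663 CPM in the resting libraries (log2 fold change 1.60 ± 0.40, adjusted p = 0.00463, edgeR). Rpl15, a gene mutated in some patients with Diamond-Blackfan anaemia, had 2083 and 892 CPM in the tetramer libraries and 341 and 789 CPM in the resting libraries. Its groups were barely apart, with tetramer library 5 near resting library 5, and its log2 fold change of 1.40 ± 0.44 (adjusted p = 0.0199, edgeR) ranged between 0.68 and 2.15 when single libraries were left out. Rpl10, whose protein joins the large subunit late in the cytoplasm, had 3537 and 2488 CPM in the tetramer libraries and 776 and 1565 CPM in the resting libraries (log2 fold change 1.36 ± 0.42, adjusted p = 0.0164, edgeR). Rpl10a, which forms the stalk beside the site that spent transfer RNA leaves, had 2419 and 2069 CPM in the tetramer libraries and 706 and 1137 CPM in the resting libraries (log2 fold change 1.28 ± 0.39, adjusted p = 0.017, edgeR). In all of these genes resting library 4 was the lowest of the 4 libraries. Rpl4, which reaches into the exit tunnel, had 4152 and 4361 CPM in the tetramer libraries and 1769 and 2233 CPM in the resting libraries. Rpl29, another large subunit gene, had 2592 and 1819 CPM in the tetramer libraries and 746 and 1355 CPM in the resting libraries. These 2 genes passed with the smallest changes of the 14, at 1.09 ± 0.40 for Rpl4 and 1.07 ± 0.40 for Rpl29 (adjusted p = 0.0414 and 0.049, edgeR).

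In the small subunit, Rps2, whose protein lines the channel where messenger RNA enters, had 4463 and 2860.4 CPM in the tetramer libraries and 890.4 and 1318 CPM in the resting libraries. The lower tetramer value was above the higher resting one by a wide margin, and the log2 fold change was 1.73 ± 0.41 (adjusted p = 0.00299, edgeR). Rps3, the other gene of the entry channel, had 1343 and 1042 CPM in the tetramer libraries and 1149 and 1210 CPM in the resting libraries. Its groups overlapped (log2 fold change 0.02 ± 0.37, adjusted p = 0.98, edgeR). Rps26, whose protein contacts messenger RNA at the exit of its channel, had 1956 and 1503 CPM in the tetramer libraries and 495 and 841 CPM in the resting libraries (log2 fold change 1.37 ± 0.39, adjusted p = 0.0116, edgeR).

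**Figure D3:**
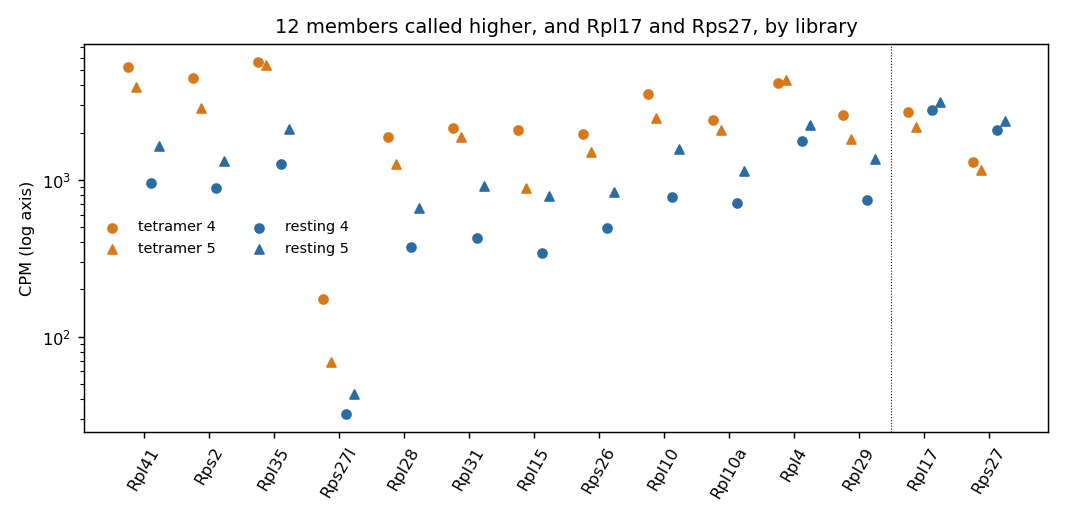
CPM in each of the 4 libraries, on a log axis, for 12 of the 14 members that rose and, right of the dotted line, for Rpl17 and Rps27; orange marks the tetramer libraries and blue the resting libraries. The tetramer values lie above both resting values for these 12 members, closely so for Rpl15, and below both for Rpl17 and Rps27.

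Rps27 and its paralog Rps27l stood at opposite ends of the family. Rps27 encodes a zinc-binding protein of the small subunit, and Rps27l a near copy that is a known target of p53. Rps27 had 1308 and 1156 CPM in tetramer libraries 4 and 5, against 2076 and 2379 CPM in resting libraries 4 and 5. It was lower in each tetramer library than in each resting library, but its log2 fold change of -0.85 ± 0.38, the lowest of the family, did not pass the test (adjusted p = 0.0958, edgeR). With library totals in place of TMM it did pass, as the only member lower. Rps27l had 174 and 69.0 CPM in the tetramer libraries and 31.9 and 43.2 CPM in the resting libraries. The log2 fold change was 1.69 ± 0.43 (adjusted p = 0.00457, edgeR) and was 0.90 without tetramer library 4, where the gene did not pass. The count of Rps27l over that of Rps27 was 0.133 and 0.0597 in the tetramer libraries and 0.0154 and 0.0181 in the resting libraries. The ratio needs no scaling between libraries, the groups were apart, and the log2 difference was 2.42 ± 0.59 (SE), with an exact two-sided permutation p = 0.333. Even so, Rps27l had the lowest level per kb of the 76 members with a gene model in both groups.

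Other paralog ratios gave no such gap. Rpl22l1 over Rpl22 was 0.0634 and 0.0129 in the tetramer libraries and 0.0337 and 0.0143 in the resting libraries; Rpl22 encodes a protein needed for T cell development in mice. The groups overlapped, and the tetramer libraries held both the highest and the lowest value. Rpl36al over Rpl36a was 0.259 and 0.268 in the tetramer libraries and 0.253 and 0.240 in the resting libraries, with groups barely apart. Rps4l, an Rps4x-like gene, was the least abundant member, with 4.30 and 2.83 CPM in the tetramer libraries and 1.86 and 1.92 CPM in the resting libraries. Its log2 fold change of 0.90 ± 0.69 did not pass (adjusted p = 0.344, edgeR), and its ratio to Rps4x overlapped between groups.

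The sources used here do not say how reads shared between near-identical copies were assigned, so values of members with close copies are uncertain. Of such copies in the table, 9 copies of 8 members were examined. The copy Rps27rt had 0.510 and 0.482 of the Rps27 count in the tetramer libraries and 0.505 and 0.499 in the resting libraries. It followed its parent closely, with a log2 fold change of -0.87 ± 0.37 (adjusted p = 0.0823, edgeR). Rps15a-ps6 had 0.662 and 0.780 of the Rps15a count in the tetramer libraries and 0.762 and 0.753 in the resting libraries. Rps15a, a small subunit gene, had a log2 fold change of -0.06 ± 0.40 and its copy one of -0.13 ± 0.40. Rpl31-ps12 had 0.0378 and 0.0328 of the Rpl31 count in the tetramer libraries and 0.0504 and 0.0407 in the resting libraries, and rose with its parent (log2 fold change 1.29 ± 0.42, adjusted p = 0.0237, edgeR). With the counts of the 9 copies added to their parents, 14 members rose, the same 14 genes.

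A second fit scaled each library by its summed ribosomal protein count, so that a log2 fold change states how a member moved against the family as a whole. On this scale the members' median was -0.01, and 4 members lay above the family: Rpl41 (1.22 ± 0.36, adjusted p = 0.00541), Rpl35 (1.11 ± 0.35, adjusted p = 0.00869), Rps2 (1.10 ± 0.37, adjusted p = 0.0152) and Rpl31 (1.02 ± 0.40, adjusted p = 0.039), by the same edgeR test. Of all tested genes, 5.35% were higher and 27.2% were lower on this scale, where their median was -0.73. The share of members above the family was thus near that of all genes. Below the family lay 2 members, Rps27 (-1.51 ± 0.38, adjusted p = 0.00116, edgeR) and Rpl17 (-0.94 ± 0.35, adjusted p = 0.0307, edgeR). Rpl17, whose protein lines the exit tunnel, had 2715 and 2170 CPM in the tetramer libraries and 2790 and 3117 CPM in the resting libraries. Its groups did not overlap but tetramer library 4 nearly met resting library 4, and under TMM scaling its log2 fold change was -0.27 ± 0.39 (adjusted p = 0.635, edgeR).

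The 6 calls depended on single libraries. Without tetramer library 4, and likewise without tetramer library 5, 0 members passed by edgeR, with 7 and 6 members at an unadjusted p below 0.05, and without resting library 4 only Rpl41, Rps2 and Rps27 did. Without resting library 5, all 6 passed along with Rpl15 and Rpl28 above the family. Scaling by the family without Rps13 and Rps20 gave the same 6 members, while DESeq2 called Rpl41, Rpl35, Rps2 and Rps27 and not Rpl31 and Rpl17.

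**Figure D4:**
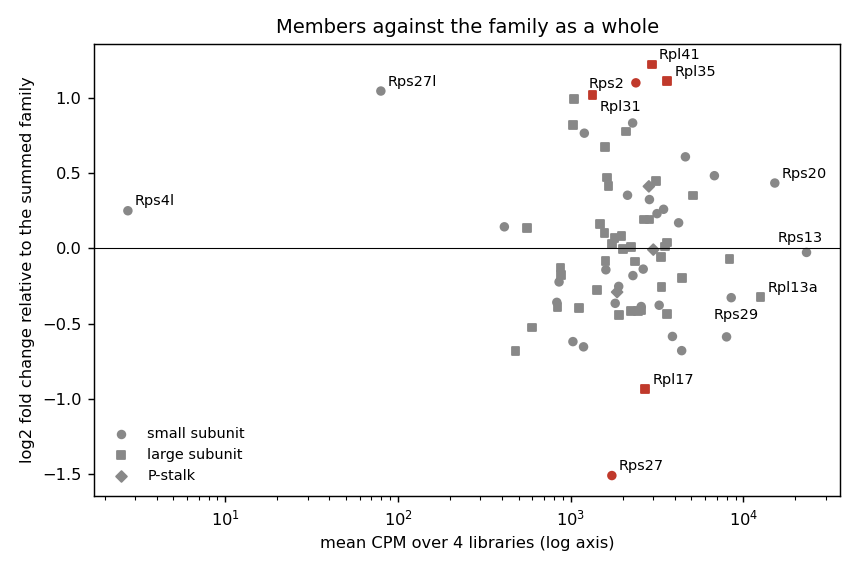
Log2 fold change relative to the summed family (vertical axis) against mean CPM over the 4 libraries (horizontal log axis) for the 77 members; red marks the 6 members at an adjusted p below 0.05. Rpl41, Rpl35, Rps2 and Rpl31 lie at 1.02 to 1.22, Rpl17 at -0.94 and Rps27 at -1.51. Of the abundant members, Rps13 lies at -0.03, Rps20 at 0.44 and Rpl13a at -0.33.

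The tunnel exit class held members at both ends. Of its 7 genes, Rpl31 and Rpl35 rose and 0 fell, when 14.3% of all tested genes rose and 12.1% fell; the median log2 fold change was 0.56, and Rpl17 was the lowest at -0.27. The class took 1.86% and 1.66% of counts in the tetramer libraries and 1.31% and 1.501% in the resting libraries. Of the 10 Diamond-Blackfan anaemia genes, 3 rose, among them Rps26 and Rpl15, and 0 fell, beside the same shares of all genes, with a median of 0.35, below the median of the whole family. Rpl5 and Rpl11, which carry the 5S ribosomal RNA and can bind Mdm2, had log2 fold changes of 0.22 ± 0.39 and 0.39 ± 0.38. Rpl5 had 3002 and 2254 CPM in the tetramer libraries and 1893 and 2626 CPM in the resting libraries, and Rpl11 had 1918 and 1310.0 CPM in the tetramer libraries and 1155 and 1312 CPM in the resting libraries. For both genes the groups overlapped and the test did not pass.

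The P-stalk recruits the elongation factors that drive the ribosome along its message. Rplp0, the base of the stalk, had 5061 and 2474 CPM in the tetramer libraries and 1157 and 2640.2 CPM in the resting libraries. Tetramer library 5 fell short of resting library 5, and the log2 fold change of 0.99 ± 0.44 did not pass (adjusted p = 0.0965, edgeR). Rplp1, a stalk tip protein gene, had 4461 and 2818 CPM in the tetramer libraries and 1886 and 2860.5 CPM in the resting libraries (0.62 ± 0.41, adjusted p = 0.267, edgeR). Rplp2, its partner, had 2110.4 and 2000.1 CPM in the tetramer libraries and 1232 and 2078 CPM in the resting libraries (0.31 ± 0.39, adjusted p = 0.585, edgeR). In all 3 genes tetramer library 4 was highest and resting library 4 lowest, with the other libraries close together. Rps27a, which encodes a ribosomal protein fused to ubiquitin, had 5836 and 4837 CPM in the tetramer libraries and 2438 and 3740 CPM in the resting libraries. Its groups did not overlap, but its log2 fold change of 0.79 ± 0.41 did not pass (adjusted p = 0.152, edgeR). Rps28, a small protein near the messenger RNA exit, had 631 and 420 CPM in the tetramer libraries and 281 and 319 CPM in the resting libraries (0.81 ± 0.37, adjusted p = 0.105, edgeR).

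The count of the family was concentrated in few genes. The 10 most abundant members held 37.0% and 45.6% of the family's counts in tetramer libraries 4 and 5, and 42.6% and 40.1% in resting libraries 4 and 5. A share of 50% of the family's counts was reached with 18 and 13 genes in the tetramer libraries and with 14 and 15 genes in the resting libraries. Rps13, a small subunit gene, was first in each library, with 7.47% and 12.3% of the family in the tetramer libraries and 11.0% and 9.23% in the resting libraries. In CPM, Rps13 had 21803 and 34195 in the tetramer libraries and 16433 and 20273 in the resting libraries. The groups did not overlap, but the tetramer libraries differed from each other by more than tetramer library 4 did from resting library 5, and the log2 fold change was 0.61 ± 0.45 (adjusted p = 0.329, edgeR). Rps20, also of the small subunit, had 16486 and 23981 CPM in the tetramer libraries and 6398 and 13875 CPM in the resting libraries (0.997 ± 0.46, adjusted p = 0.109, edgeR). Rpl13a, a large subunit gene, had 12676 and 14779 CPM in the tetramer libraries and 8585 and 14064 CPM in the resting libraries. Resting library 5 lay between the tetramer libraries, and the log2 fold change was 0.28 ± 0.43 (adjusted p = 0.669, edgeR).

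Divided by transcript length, from 76 members with a gene model in GENCODE M21, Rps13 was also the highest, with a mean of 47537 CPM per kb in tetramer libraries and 31160.0 in resting libraries. Rps29, a zinc-binding protein gene of the small subunit, came next in both groups, with 24290.3 CPM per kb in tetramer libraries and 19269 in resting libraries. Rpl41 was sixth with 10531 CPM per kb in tetramer libraries, and had rank 30 with 2965 in resting libraries. Rps27 had rank 42 with 3572 CPM per kb in tetramer libraries, and rank 8 with 6458 in resting libraries. Rpl35 had rank 17 in tetramer libraries and rank 46 in resting libraries, and Rpl17 rank 45 in tetramer libraries and rank 19 in resting libraries. The level of Rps20 per kb is not given, since the transcript used for it, of 3706 nt, is the longest and far above the median of 680.5 nt. The ranks still count Rps20 at this length. A shorter transcript would raise Rps20, perhaps above Rps29, and would lower the ranks of the members it passed.

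Ratios between single libraries showed how much of the family's shift lay between libraries of the same group. The median log2 ratio of the 77 members was 1.04 for tetramer 4 over resting 4, 0.48 for tetramer 4 over resting 5, 0.75 for tetramer 5 over resting 4 and 0.19 for tetramer 5 over resting 5. In the last pair 49 of the 77 members were positive. Resting 5 over resting 4 gave a median of 0.57, with 74 of 77 members positive, and tetramer 4 over tetramer 5 gave 0.32, with 62 positive. Over all tested genes these 6 medians lay between -0.07 and 0.02. The shift between the 2 resting libraries was thus larger than that between tetramer library 5 and resting library 5.

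**Figure D5:**
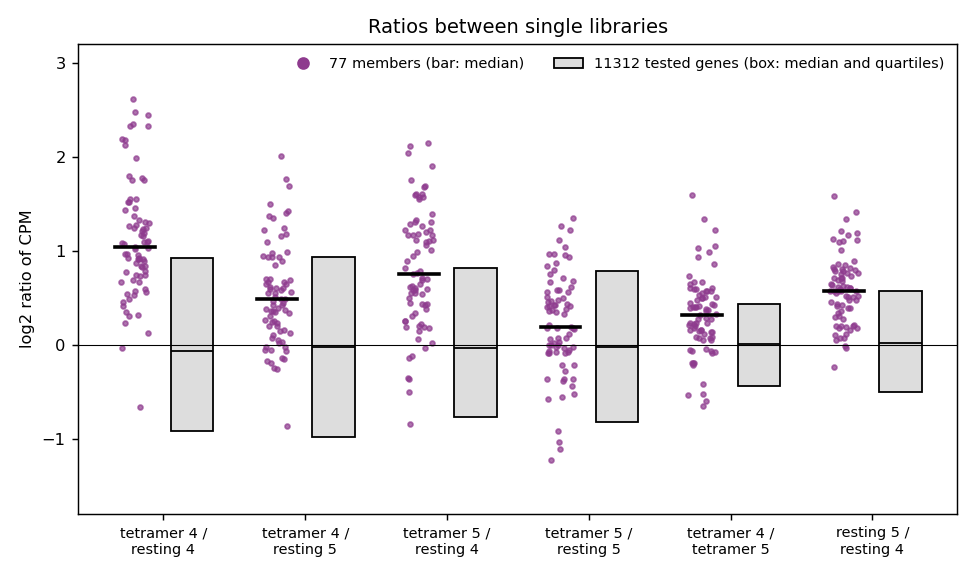
Log2 ratios of CPM between single libraries for the 77 members (points, with a bar at their median) and for the 11312 tested genes (boxes from the lower to the upper quartile with a line at the median). The members' medians are 1.04, 0.48, 0.75 and 0.19 in the 4 pairs of a tetramer over a resting library, 0.32 between the tetramer libraries and 0.57 between the resting libraries.

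Members differed in how they varied within a group. Rps14 had the largest log2 ratio of resting 5 over resting 4, 1.58, followed by Rps21 at 1.42, both chosen here after their values were seen. Rps21, a small subunit gene, had 5038 and 2640.4 CPM in the tetramer libraries and 2137 and 5704 CPM in the resting libraries. The highest and the next to highest value belonged to different groups, and its log2 fold change was -0.03 ± 0.45. Rps27 and Rpl17 had log2 ratios of 0.18 and 0.32 for tetramer 4 over tetramer 5, where the members' median was 0.32. For resting 5 over resting 4 they had 0.20 and 0.16, below the members' median of 0.57. Rps13 ran opposite to most members between the tetramer libraries, with a log2 ratio of -0.65 for tetramer 4 over tetramer 5.

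The log2 fold change of the members varied little with the gene properties examined. Across members, which are not independent replicates and share their libraries, Pearson's r and Spearman's rho with the fold change were 0.04 and 0.07 for transcript length (76 genes), -0.03 and -0.05 for the number of exons (76 genes) and -0.09 and 0.02 for mean log2 CPM (77 genes). Many ribosomal protein genes carry small nucleolar RNA genes in their introns. Such a gene lay within 28 of the 76 members with a model. Of these 28, 4 rose, when 14.3% of all tested genes and 18.2% of all members did. The median log2 fold change was 0.58 in these 28 and 0.66 in the others.

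The start of transcription was examined because the TOP motif lies there. Sequences around the annotated start were found for 56 of the 77 members, among them 11 of the 14 that rose, in the RefSeq promoter set for GRCm38.p6; the authors used mm9, so these positions belong to another build than the counts. The 30 bases shown run from 15 before to 15 after the start, 5′ to 3′ on the gene's strand, with the longest unbroken run of C and T in capitals. The first 3 are members that rose and have long runs.
Rpl35, chr2:39005117-39005146 (minus strand): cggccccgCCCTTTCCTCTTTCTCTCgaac
Rpl28, chr7:4792950-4792979 (plus strand): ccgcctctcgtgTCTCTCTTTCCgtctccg
Rpl15, chr14:18270972-18271001 (minus strand): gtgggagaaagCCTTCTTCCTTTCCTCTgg
The next 3 are the other members above the family, Rpl41, Rps2 and Rpl31, whose runs are short or lie upstream of the start in these annotated windows.
Rpl41, chr10:128549154-128549183 (minus strand): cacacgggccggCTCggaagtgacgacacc
Rps2, chr17:24720048-24720077 (plus strand): aggcagtcgagatctcgcgCTTCTTggagc
Rpl31, chr1:39367836-39367865 (plus strand): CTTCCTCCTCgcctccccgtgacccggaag
The last 3 are Rps27, which lay below the family, and Rps15a and Rpl13a, which did not pass either test.
Rps27, chr3:90213634-90213663 (minus strand): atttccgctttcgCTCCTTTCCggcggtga
Rps15a, chr7:118116133-118116162 (minus strand): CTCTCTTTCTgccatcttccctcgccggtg
Rpl13a, chr7:45128731-45128760 (minus strand): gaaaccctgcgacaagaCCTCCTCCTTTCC

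Within the 30 bases, the runs held 18 bases in Rpl35, 17 in Rpl15, 13 in Rpl13a, 11 in Rpl28, 10 in Rpl31 and Rps15a, 9 in Rps27, 6 in Rps2 and 3 in Rpl41. The runs of Rpl13a, Rpl31 and Rps15a reach an edge of the bases shown, so they may be longer. Members on both sides of the test thus had long runs, and Rpl41, the member with the largest fold change, had the shortest of those shown. A run of 8 or more pyrimidines lay in these 30 bases in 26 of the 56 members (46.4%), against 13.9% of the 27025 genes with a window. It was found in 7 of the 11 matched members that rose and in 19 of the 45 others. Where a gene had more than 1 window, as 9 members did, the longest run was taken. In the whole window of 300 bases, CCGGAAG, the core bound by ETS-family factors, was searched on both strands and found in 23 of the 56 members (41.1%), against 9.93% of all genes. CACGTG, the E-box that Myc can bind, was found in 6 members (10.7%), against 8.09% of all genes, and TATAAA in 6 members (10.7%), against 15.7%. On the opposite strand CCGGAAG begins with a short pyrimidine run, so its matches can share letters with the runs counted above. The motifs were chosen after the fold changes were seen. A match is a description of the letters and not of a bound site.

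Other genes of the same pathway, from lists of ribosome-related genes, were set beside the family; of all tested genes, 14.3% rose and 12.1% fell. Of 7 ribosomal protein genes outside the rule, 0 passed in either direction by edgeR's test, although 6 were positive, with a median log2 fold change of 0.76. At an unadjusted p below 0.05, 4 of them were higher and 0 lower, and DESeq2 called 1 higher. The 7 include Gnb2l1, also named Rack1, and not Rps3a1, which had a log2 fold change of 0.28 ± 0.40 (adjusted p = 0.629, edgeR). Rpsa, a small subunit gene, had 13912 and 10759 CPM in the tetramer libraries and 6575 and 6495 CPM in the resting libraries; the groups were apart, with a log2 fold change of 0.92 ± 0.42 (adjusted p = 0.106, edgeR). Rpl22l1, with 1.20 ± 0.48 (adjusted p = 0.064, edgeR), had overlapping groups, at 101 and 27.5 CPM in the tetramer libraries, against 32.1 and 23.9 CPM in the resting libraries. Of 16 translation factors and other genes with TOP messages, 6 rose and 0 fell, with a median of 0.67. Among them Npm1, a nucleolar chaperone, had a log2 fold change of 2.55 ± 0.40 (adjusted p = 3.76e-05, edgeR) and Eef1d, an elongation factor subunit, one of 1.45 ± 0.37 (adjusted p = 0.00479, edgeR). Of 8 genes listed as regulators of TOP messages, 2 rose and 0 fell, with a median of -0.26. Those that rose were the poly(A)-binding protein gene Pabpc4 at 2.31 ± 0.46 and Larp1, which binds the TOP motif, at 1.34 ± 0.39 (adjusted p = 0.000529 and 0.0116, edgeR). In this broad list 3 genes were positive and 5 negative. The negative ones were Tia1 (-0.96), Tial1 (-0.42), Mdm2 (-0.73) and the kinase genes Rps6kb1 (-0.76) and Rps6kb2 (-0.11). The role of the listed genes at TOP messages was not tested.

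Genes for building ribosomes changed more than the ribosomal proteins did. Of 24 ribosome assembly factors and rRNA synthesis genes, 21 rose and 0 fell, when 14.3% of all tested genes rose and 12.1% fell, with a median log2 fold change of 2.08. They took 0.666% and 0.677% of counts in the tetramer libraries and 0.208% and 0.215% in the resting libraries. Rrp12, which takes part in subunit maturation and export, had 68.8 and 62.1 CPM in the tetramer libraries and 2.69 and 4.27 CPM in the resting libraries (4.22 ± 0.51, adjusted p = 1.3e-06, edgeR). Nhp2, a protein of the particles that modify rRNA, had 403 and 240.1 CPM in the tetramer libraries and 7.46 and 35.5 CPM in the resting libraries (3.90 ± 0.52, adjusted p = 4.7e-06, edgeR). Both genes were far higher in each tetramer library than in each resting library. Against the summed ribosomal protein count, 13 of the 24 assembly factors were higher and 0 lower, by the same test, when 5.35% of all tested genes were higher and 27.2% lower. Of 10 chaperones and escorts of single ribosomal proteins, 4 rose and 0 fell, with a median of 1.55; Grwd1, an Rpl3 chaperone, reached 2.80 ± 0.47 and Rpf2, which helps place Rpl5 and Rpl11, 2.69 ± 0.39 (adjusted p = 9.97e-05 and 1.6e-05, edgeR). Npm1 and Rrs1 stand on more than 1 of these lists.

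The 77 mitochondrial ribosomal protein genes, encoded in the nucleus for the separate ribosome of the mitochondrion, gave a second contrast. Of them, 37 rose and 0 fell, when 14.3% of all tested genes rose and 12.1% fell, with a median log2 fold change of 1.01. They took 0.816% and 0.824% of counts in the tetramer libraries and 0.451% and 0.506% in the resting libraries, with groups apart and close within each group. Mrps2, a small subunit gene of that ribosome, had a log2 fold change of 3.33 ± 0.67 and Mrps10 one of 3.01 ± 0.50 (adjusted p = 0.000637 and 8.07e-05, edgeR). Against the summed cytosolic ribosomal protein count, 11 of these 77 genes were higher and 1 was lower, by the same test, beside 5.35% higher and 27.2% lower among all tested genes.

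For the 5 lists of other ribosome-related genes in which 0 genes fell by edgeR (TOP message genes, TOP regulators, assembly factors, chaperones and mitochondrial ribosomal proteins), DESeq2 and voom also called 0 genes lower. At an unadjusted p below 0.05, Tia1, a TOP regulator, was the 1 gene of these lists that was lower. For the 10 chaperones, 6 were called higher by DESeq2 and 5 by voom, against 4 by edgeR.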

How the data were processed

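The authors deposited raw counts of reads, as whole numbers, for each gene symbol. Bowtie2, DESeq2 and the build mm9 are named without versions, per the submitters' processing notes. The sources used here give neither the counter, nor its use of strand, nor its treatment of reads that match several genes. Per the labels' protocols, poly(A) RNA was used and 23 PCR cycles amplified cDNA of 200 to 400 nt. Columns were matched to groups by their names. Of 12021 rows, 1 with a cell that is not a number (Tmem138) was left out, 18 symbols had become dates, and no count is below 1, so a gene without counts in some library is not analysed here. No column of other samples was found.

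The test was that of edgeR 4.0.16, run in R 4.3.3 (default expression filter, TMM, quasi-likelihood F test, Benjamini-Hochberg adjustment over 11312 genes, threshold 0.05). TMM factors were 0.89 and 0.917 for tetramer libraries 4 and 5 and 1.16 and 1.06 for resting libraries 4 and 5, and the common biological coefficient of variation was 0.322. Member counts per library ran from 9 to 169050; all but Rps27l and Rps4l had at least 1358. Standard errors come from the F statistic. The fit was tested on simulated data. Alternatives included DESeq2 1.42.0 and voom from limma 3.58.1. Transcript lengths are those of the shortest principal transcript in GENCODE M21.

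The members and lists were chosen with earlier results of these data known. Named members are those that passed either fit, the 3 highest and 3 lowest by fold change, the 3 most and 3 least abundant, and those of the stalk, messenger RNA entry, 5S, ubiquitin and paralog classes, with the 2 largest changes of each other list; Rps14, Rps21, Rps29, Rpl22, Rpl36al, Tpt1, Rn45s and the copies were chosen after their values were seen. Values of a few members are left out and not reported here.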

Additional observations from a re-analysis of the deposited data

How the results depend on the processing

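In all alternatives run, the ribosomal protein share stayed higher in tetramer libraries. With single libraries left out the difference was 2.46 to 8.30 percentage points. These omissions could not reverse it, since both tetramer shares lay above both resting shares, so they show its size only. The number of members that rose, 14 by default, ranged between 3 and 18 with single libraries left out and was 8 against a fold of 1.5. With library totals, 12 rose and 1 fell; with DESeq2 15, with voom 18, with a stricter filter of 10 CPM 15, and with no filter 13 rose. Against the family, the members above numbered 0 to 6 and those below 0 to 2 with single libraries left out, and 3 above and 1 below with DESeq2, which lost Rpl31 and Rpl17. The large to small subunit difference (log2) ranged between -0.10 and 0.16 with single libraries left out, where it reversed without tetramer library 4.

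Of the named members' fold changes, 8 values changed sign, none of them past the threshold. With single libraries left out, the log2 fold change of Rplp2 ranged between -0.0011 and 0.76, that of Rpl13a between -0.021 and 0.70, that of Rps3 between -0.16 and 0.20 and that of Rps15a between -0.30 and 0.28. The reversals were those of Rplp2 and Rpl13a without resting library 4, of Rps3 without resting library 4 (-0.0057) or tetramer library 4 (-0.16), and of Rps15a without resting library 5 (0.28) or tetramer library 5 (0.014). With library totals, Rpl5 was at -0.069 and Rps3 at -0.28. The cause was not tested. Of the other values, 31 no longer passed, 3 newly passed and 248 kept their direction and call.

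Column numbers 4 and 5 do not pair the libraries in the labels, and deviations from the group means of libraries with the same number correlated at 0.0486 over all tested genes. With the column number as a replicate block, 11 members rose, 1 lay above (Rpl41) and 1 below the family (Rps27), so that Rps2, Rpl35, Rpl31 and Rpl17 were not called, and the share differed by 8.60 points between the libraries numbered 4 and 2.16 between those numbered 5. Intervals on 2 libraries a group are wide, and the members with the lowest counts, Rps27l and Rps4l, carry more counting error.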
